A study of Mus musculus with 15 samples.

Results

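LSK cells of mice that lack Tet2 and carry the activating Nras(G12D) mutation, but had not become leukemic, were compared with LSK cells of wild-type mice. LSK cells are lineage-negative bone marrow cells with Sca1 and cKit on their surface, the fraction that holds the blood stem cells and the earliest multipotent progenitors. All genes with at least 1 CPM (counts scaled to library size, where 1 CPM is a log2 value of 0) in at least 3 of the 6 libraries compared were taken, which left 13231 of the 44827 genes of the table. The deposited expression values chose the genes only through this minimum, not through the difference between the groups.

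There were 3 libraries of Tet2-/- Nras(G12D) animals (the double mutant from here on) and 3 of wild type (WT). Side by side with them stand 3 libraries of Tet2-/- and 3 of Nras(G12D) animals, the single mutants, and 3 further libraries came from leukemic Tet2-/- Nras(G12D) animals. Per the labels, all mice were C57BL/6, marrow was taken from femurs, tibiae and iliac crests, and the libraries of the sorted cells were stranded and made from mRNA. The mutations were conditional and specific to the blood system. The Cre driver and its promoter are not given in the sources used, and 6 months is the age named for the animals whose methylome was studied. The series title asks how loss of TET2 and mutant NRAS work together in myeloid transformation. Whether the 3 libraries of each genotype are separate animals is not stated. Sex-linked transcripts, given below, differed between libraries of the double mutant, Tet2-/- and Nras(G12D) groups, so none of these groups was a single animal. The p-values cover only the spread between libraries, which may be technical in part or, in WT, wholly.

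TET2 is an enzyme that oxidises methylated cytosine and so opens the way to DNA demethylation, and it is among the genes most often mutated in clonal hematopoiesis and myeloid cancers. NRAS is a small GTPase, and the G12D change holds it in the GTP-bound state in which it drives the RAF, MEK and ERK kinases. ERK and other kinases switch on the immediate early genes within minutes of a stimulus. These genes need no new protein synthesis, and many encode transcription factors such as FOS, JUN and EGR1 or their feedback inhibitors, such as the phosphatase DUSP1.

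Total counts ran from 27152151 to 33037109 in the double mutant libraries and from 23821717 to 26079674 in the WT libraries, so that 3 counts, the limit that a count of 0 allows, came to 0.0905 to 0.117 CPM (counting error only). Libraries of a group differed by more than sampling noise, with a lowest chi-square per degree of freedom of 28.3. Double mutant library 1 stood apart from the other 2. Its log2 values correlated at 0.9609 and 0.9495 with double mutant libraries 2 and 3. With WT libraries 1 to 3 the correlations were 0.9411, 0.9631 and 0.9554, so it was as close to WT as to its own group. On the first principal component of the 6 libraries, which held 65.2% of the variance, the double mutant libraries 1 to 3 lay at -10.2, -58.9 and -68.3 and the WT libraries 1 to 3 at 60.3, 27.6 and 49.3. Double mutant library 1 was also the only one of the 6 with more than traces of Y chromosome transcripts: Ddx3y had 175, 0.181 and 0.0351 CPM in the double mutant libraries and 0.457, 0.0782 and 0.0366 CPM in WT. Xist, the RNA that silences 1 X chromosome in females, had 0.692, 537 and 706 CPM in the double mutant and 490, 433 and 366 CPM in WT. In the single mutant groups, Tet2-/- libraries 1 and 2 and Nras(G12D) library 2 had such transcripts as well, so those groups are of mixed sex. With sex as a covariate in the fit all 92 calls given next were kept, among 518 in all (458 higher, 60 lower). Tet2 itself (chromosome 3, 133463679 to 133545139, minus strand, GRCm38) had 62.6, 56.3 and 47.9 CPM in the double mutant and 65.2, 50.7 and 61.0 CPM in WT. The values are per gene and the exons that the allele lacks are not stated, so the level does not check the label. Nras had 159, 157 and 145 CPM in the double mutant and 179, 172 and 167 CPM in WT, and its G12D change is a single base that a count cannot show.

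Of the 13231 genes, 92 (0.695%) passed the test in the double mutant against WT. Among them, 65 (0.491%) rose and 27 (0.204%) fell. The test was limma on the deposited log2 values of all 15 libraries in 1 fit with 5 group means, two-sided, with Benjamini-Hochberg adjusted p below 0.05 over all 13231 genes. An unadjusted p below 0.05 was found for 2009 genes (15.2%). The 3 double mutant values lay above all 3 WT values for 2197 genes (16.6%) and below them for 2793 (21.1%), and the groups did not overlap for any of the 92. The median log2 change over all genes was 0.00, with 6642 genes above 0 and 6589 below. Of the 92 genes, 34 reached the minimum in 1 group only (21 of those that rose, 13 of those that fell), so these had to differ in order to be counted. Without double mutant library 1 the count was 961 (896 higher, 65 lower) and all 92 calls were kept. It was 11 without double mutant library 2, 20 without double mutant library 3, and 7, 37 and 10 without WT libraries 1, 2 and 3. For 53 of the 92 the call held in only 1 of these 6 fits, the one without double mutant library 1. The calls of Tjp1, Gbp2b, Thbs1, Rpl34-ps1, Gm19708 and Gm5900 held in all 6. With only the 6 compared libraries in the fit, 587 genes passed (4.44%), of which 318 (2.4%) were higher and 269 (2.03%) lower, and 86 of the 92 were among them. Limma on count weights (voom with sample quality weights) called 3633 (27.5%), of which 2508 were higher and 1125 lower. Its sample weights were 0.765, 2.42 and 1.42 for double mutant libraries 1 to 3 and 1.43, 2.96 and 3.19 for WT. Double mutant library 1 thus counted least of the 6. Counts of list members given below stand beside these shares of all genes, 15.2% at an unadjusted p below 0.05 and 27.5% by voom.

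**Figure D1:**
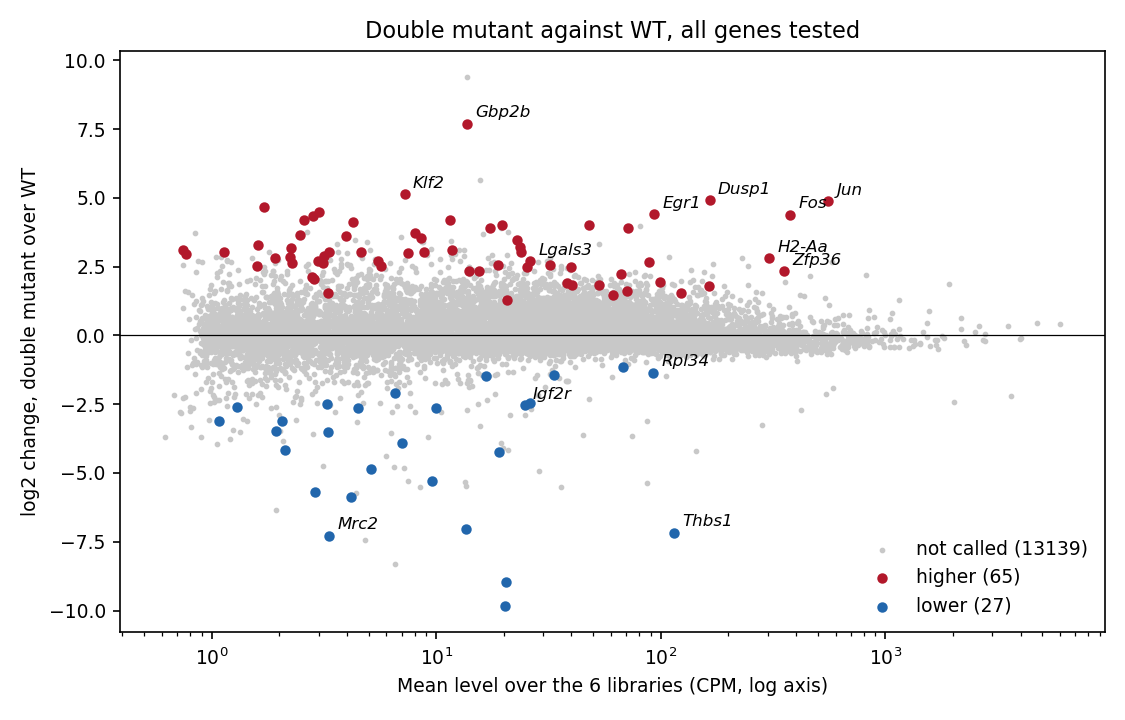
Log2 change, double mutant over WT, of each of the 13231 genes (y axis) against its mean level over the 6 libraries in CPM (x axis, log scale). Red points are the 65 genes that rose, blue points the 27 that fell and grey points the rest, which did not pass the test.

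Of the 44 gene lists, the immediate early genes held the most rises. Of the 24 measured of 27 listed, 11 rose, against 0.491% of all genes, and none fell. Klf2 and Atf3, among the 11, reached the minimum in the double mutant only. The members and all 44 lists were chosen with earlier results of these data known. Shares of this kind therefore describe the lists and do not test them. Their median log2 change was 2.47, against 0.00 over all genes. In 21 of the 24 every double mutant value lay above every WT value. Summed over the list, the level was 3899, 5633 and 6343 CPM in the double mutant and 1198, 1474 and 1422 CPM in WT. An unadjusted p below 0.05 was found for 20 members, all higher (against 15.2% of all genes in either direction). Without double mutant library 1 the test called 16 members.

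**Figure D2:**
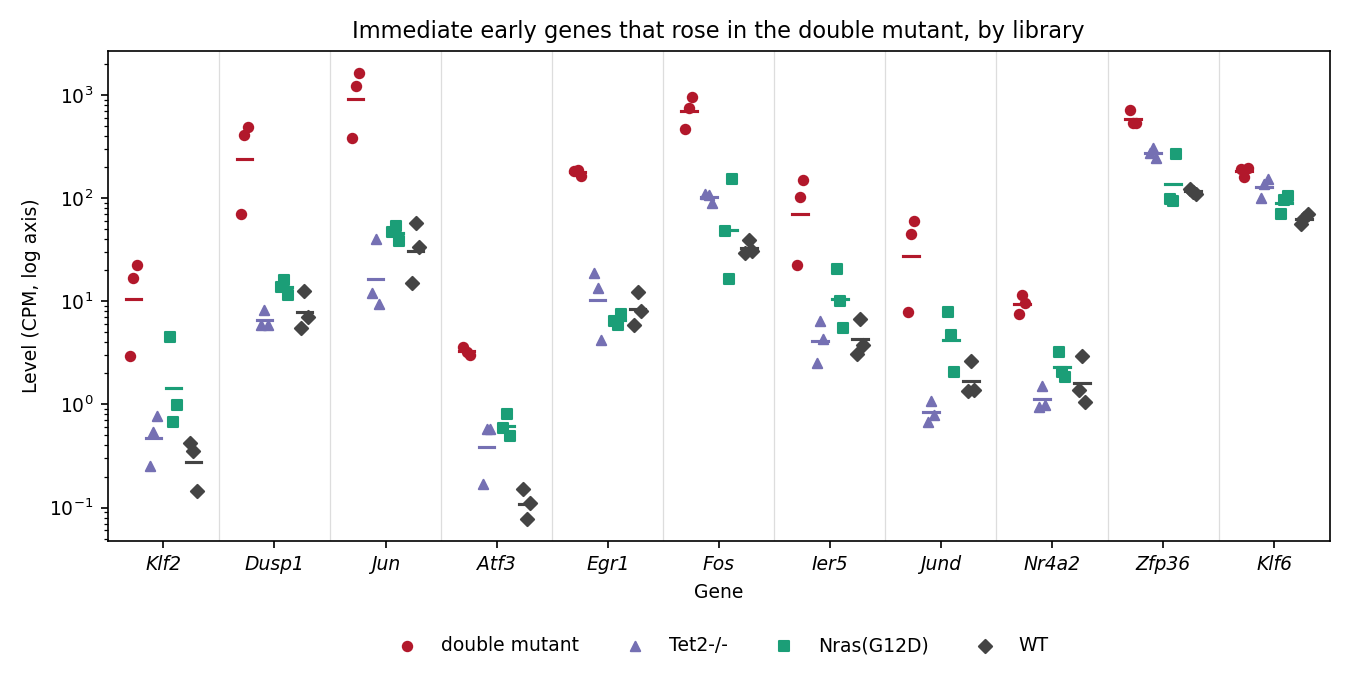
Level in CPM (y axis, log scale) of the 11 immediate early genes that rose, in each library of the double mutant, Tet2-/-, Nras(G12D) and WT groups from left to right; points are libraries and bars geometric means of 3. The double mutant points of Egr1 sit between 163 and 189 CPM, above the 5.95 to 12.2 CPM of WT.

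The AP-1 subunits are given first. Jun, a subunit of the AP-1 transcription factor (chromosome 4, 95049034 to 95052222, minus strand), had 379, 1230 and 1627 CPM in the double mutant libraries and 15, 57.8 and 33.7 CPM in WT, a log2 change of 4.89 ± 0.77 (SE, n = 3 each, limma adjusted p = 0.011). The lowest double mutant library lay above the highest WT library, and library 1 was the lowest of the 3 double mutants. Fos, the partner of JUN in AP-1 (chromosome 12, 85473890 to 85477273, plus strand), had 466, 745 and 955 CPM in the double mutant and 29.6, 39.6 and 30.5 CPM in WT, a log2 change of 4.39 ± 0.87 (limma adjusted p = 0.0356). Jund, another JUN family subunit, had 7.92, 44.5 and 60.2 CPM in the double mutant and 1.33, 2.66 and 1.39 CPM in WT (4.01 ± 0.72, limma adjusted p = 0.019). All 3 showed the order of libraries seen in Jun, with library 1 between WT and the other 2 double mutant libraries. Fosb had 11.4, 29.1 and 51.6 CPM in the double mutant and 0.648, 0.548 and 0.33 CPM in WT, with a log2 change of 5.67 ± 1.36 that did not pass (limma adjusted p = 0.0719). Junb had 282, 271 and 319 CPM in the double mutant and 26.8, 71.0 and 58.3 CPM in WT and did not pass either (limma adjusted p = 0.066). Neither pair of groups overlapped.

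The zinc finger factors and nuclear receptors differed in how even the double mutant libraries were. Egr1, a zinc finger factor induced through ERK (chromosome 18, 34859823 to 34864984, plus strand), had 181, 189 and 163 CPM in the double mutant and 5.95, 12.2 and 8.13 CPM in WT, a log2 change of 4.40 ± 0.64 (limma adjusted p = 0.00877). The 3 double mutant libraries were close to each other here, library 1 included. Atf3, a stress-induced factor of the ATF family, was as even, with 3.63, 3.23 and 3.02 CPM in the double mutant and 0.152, 0.0783 and 0.110 CPM in WT (4.68 ± 0.87, limma adjusted p = 0.0232). Klf2, a Krüppel-like factor that holds lymphocytes in quiescence, had 2.97, 16.8 and 22.7 CPM in the double mutant and 0.419, 0.352 and 0.146 CPM in WT (5.12 ± 0.89, limma adjusted p = 0.019). Klf6, a relative of it, had 192, 160 and 195 CPM in the double mutant and 56.1, 64.1 and 69.8 CPM in WT (1.52 ± 0.31, limma adjusted p = 0.0415). Nr4a2, an orphan nuclear receptor, had 7.57, 11.4 and 9.62 CPM in the double mutant and 1.37, 2.93 and 1.06 CPM in WT (2.52 ± 0.46, limma adjusted p = 0.0218). In all 5 genes the groups were separate, and only in Klf2 was library 1 far below libraries 2 and 3.

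Dusp1 and Zfp36, inhibitors that act after the first response, rose too, as did Ier5. Dusp1, the phosphatase that inactivates the MAP kinases p38, JNK and ERK (chromosome 17, 26505590 to 26562128, minus strand), had 69.5, 408 and 487 CPM in the double mutant and 5.49, 12.7 and 7.10 CPM in WT, a log2 change of 4.92 ± 0.73 (limma adjusted p = 0.00877). Zfp36 encodes tristetraprolin, which brings AU-rich mRNAs to decay. It had 710, 529 and 537 CPM in the double mutant and 123, 115 and 111 CPM in WT (2.34 ± 0.45, limma adjusted p = 0.0304). Ier5, an immediate early gene, had 22.5, 103 and 149 CPM in the double mutant and 3.09, 6.73 and 3.77 CPM in WT (4.03 ± 0.68, limma adjusted p = 0.0169). Library 1 was again the lowest double mutant in Dusp1 and Ier5, but the highest in Zfp36. Other inhibitors of the list did not pass. Dusp2, a phosphatase of MAP kinases, had 27.8, 62.8 and 70.9 CPM in the double mutant and 12.3, 11.4 and 8.38 CPM in WT (2.24 ± 0.72, limma adjusted p = 0.131), and Zfp36l1, a relative of Zfp36, had 11.7, 8.14 and 10.7 CPM in the double mutant and 7.05, 7.36 and 7.25 CPM in WT (0.48, limma adjusted p = 0.571).

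Other members of the list did not pass. Myc, the growth factor-induced oncogene, had 792, 799 and 702 CPM in the double mutant and 704, 759 and 846 CPM in WT (log2 change -0.01, limma adjusted p = 0.995). Fosl2 had 7.92, 9.23 and 8.25 CPM in the double mutant and 7.01, 8.61 and 7.65 CPM in WT (0.13, limma adjusted p = 0.918). Both overlapped. Nr4a1, the closest relative of Nr4a2, had 75.7, 31.4 and 15.1 CPM in the double mutant and 8.61, 8.14 and 7.10 CPM in WT, with library 1 the highest, and did not pass (limma adjusted p = 0.211). Egr2, Egr3 and Nr4a3 were below the minimum. When each of the 6 libraries was left out in turn, the calls of the 11 genes that rose were kept in 1 to 3 of the 6 fits, always in the one without double mutant library 1. Klf6 also lost its call with scaling by total counts and with median centring. The log2 change of Jun ran from 4.37 to 5.52 over these fits, that of Fos from 4.16 to 4.68, that of Egr1 from 4.15 to 4.67 and that of Dusp1 from 4.41 to 5.81. The heat shock genes, which handling of cells can induce, were measured beside them. Hspa1a had 10.8, 27.4 and 79.2 CPM in the double mutant and 0.724, 3.09 and 4.17 CPM in WT (3.75, limma adjusted p = 0.0999), while the 14 heat shock and chaperone genes had a median log2 change of -0.23. Of the 14, 6 were above 0 and 8 below. None was called by limma, 3 had an unadjusted p below 0.05, all higher, and voom weights called 3 higher and 2 lower. Of all genes, 15.2% had an unadjusted p below 0.05 and voom weights called 27.5%. Whether handling of the cells entered the rises of the heat shock or immediate early genes was not tested.

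The promoters of 3 of the genes that rose are shown for the CRE, the element that CREB and ATF factors are known to bind. Its core was searched as the letters TGACG on either strand (CGTCA where it lies on the other strand), and the palindrome TGACGTCA holds the core on both strands. Each line gives the 250 bases before the annotated transcription start, 5′ to 3′ on the strand of the gene, from RefSeq (GRCm38.p6), with matches in capitals: Fos at chr12:85473640-85473889 (plus strand), Dusp1 at chr17:26508473-26508722 (minus strand) and Nr4a2 at chr2:57124004-57124253 (minus strand).
Fos: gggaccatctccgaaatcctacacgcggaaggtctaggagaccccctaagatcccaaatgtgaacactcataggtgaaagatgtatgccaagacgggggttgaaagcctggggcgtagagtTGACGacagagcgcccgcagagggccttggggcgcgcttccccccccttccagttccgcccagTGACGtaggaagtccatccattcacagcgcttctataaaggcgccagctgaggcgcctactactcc
Dusp1: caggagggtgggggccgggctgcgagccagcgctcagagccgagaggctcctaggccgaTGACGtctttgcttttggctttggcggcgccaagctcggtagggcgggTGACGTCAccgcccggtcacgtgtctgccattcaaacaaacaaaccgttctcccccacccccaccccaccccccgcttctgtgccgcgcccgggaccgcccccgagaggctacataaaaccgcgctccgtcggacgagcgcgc
Nr4a2: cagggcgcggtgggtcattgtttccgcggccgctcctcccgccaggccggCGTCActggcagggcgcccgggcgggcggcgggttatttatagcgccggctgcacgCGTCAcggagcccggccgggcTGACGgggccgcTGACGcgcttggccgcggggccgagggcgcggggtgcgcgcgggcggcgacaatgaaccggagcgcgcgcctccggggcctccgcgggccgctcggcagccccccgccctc
The Fos window holds the core at -129 to -125 and at -66 to -62 relative to the start. The Dusp1 window holds the palindrome at -143 to -136, and the Nr4a2 window holds 4 separate cores. Of 19 immediate early promoters in the table, 10 (52.6%) hold the core. Among those of genes that rose, 5 of 10 (50.0%) hold it, and Jun, Jund, Klf6, Ier5 and Zfp36 do not. The share was 26.3% of the 12186 promoters of tested genes and 17.8% of all 32851 promoters. The CArG box, the site of serum response factor, was found in 2 of the 19 (10.5%), against 1.08% for the tested genes. A match is a description of the sequence and does not show that a factor was bound.

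The list of ERK output and feedback genes, which holds none of the immediate early genes above, gave no calls. None of the 17 measured of 21 ERK output and feedback genes passed in limma. An unadjusted p below 0.05 was found for 5, all higher (against 15.2% of all genes in either direction). Voom weights called 7, all higher (against 27.5% of all genes in either direction). The median log2 change was 0.64, and 13 of the 17 were above 0. In 10 the double mutant lay above WT without overlap (against 16.6% of all genes), and in 1 below (against 21.1%). Spry1, a Sprouty inhibitor of receptor signaling to RAS, had 7.19, 9.26 and 11.2 CPM in the double mutant and 2.36, 4.07 and 3 CPM in WT (1.56 ± 0.51, limma adjusted p = 0.139). Spry2 had 6.29, 5.64 and 6.99 CPM in the double mutant and 2.63, 2.35 and 1.79 CPM in WT (1.49 ± 0.50, limma adjusted p = 0.153). The groups were separate in both. Dusp6, the phosphatase specific to ERK, had 272, 226 and 226 CPM in the double mutant and 124, 172 and 186 CPM in WT (0.60 ± 0.62, limma adjusted p = 0.728).

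The components of the RAS pathway themselves gave 0 calls in limma among 30 measured of 31. An unadjusted p below 0.05 was found for 12, all higher (against 15.2% of all genes in either direction). Voom weights called 17 higher (against 27.5% of all genes in either direction). The list's median log2 change was 0.67, and without double mutant library 1 the test called 9 higher (against 896 of all 13231 genes). Rasgrp4, a guanine nucleotide exchange factor for RAS, had 6.95, 3.59 and 4.78 CPM in the double mutant and 0.533, 0.782 and 0.952 CPM in WT (2.71 ± 0.59, limma adjusted p = 0.0541). Grb2, the adaptor between receptors and SOS, had 36.6, 144 and 115 CPM in the double mutant and 23.7, 30.7 and 19.6 CPM in WT (1.80 ± 0.49, limma adjusted p = 0.0935). In Grb2 double mutant library 1 lay near the range of WT, far below libraries 2 and 3.

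Genes of antigen presentation and of dendritic cells made up the next group of rises. Of 10 measured MHC class II pathway genes (11 listed), H2-Aa and Ciita rose and none fell, with 8 at an unadjusted p below 0.05, all higher. Their median log2 change was 1.71, all 10 were above 0, and 8 of the 10 lay above WT without overlap, against 16.6% of all genes, of which 0.491% rose. Summed over the list, the level was 4681, 2865 and 4175 CPM in the double mutant and 931.6, 1005 and 1150 CPM in WT. Here library 1 was not the lowest of the double mutants. H2-Aa, the alpha chain of the class II molecule I-A (chromosome 17, 34282744 to 34287823, minus strand), had 665, 392 and 532 CPM in the double mutant and 50.8, 83.0 and 94.4 CPM in WT, a log2 change of 2.81 ± 0.53 (limma adjusted p = 0.027). Ciita, the coactivator that class II transcription depends on (chromosome 16, 10480059 to 10528418, plus strand), had 57.6, 35.8 and 35.4 CPM in the double mutant and 5.11, 8.45 and 9.19 CPM in WT (2.50 ± 0.52, limma adjusted p = 0.0415). The groups were separate by a wide margin in both. The partners of these genes had changes of like size without passing. H2-Eb1, the beta chain of the class II molecule I-E, had 467, 269 and 466 CPM in the double mutant and 36.4, 64.0 and 72.6 CPM in WT (2.81 ± 0.63, limma adjusted p = 0.0576). Cd74, the invariant chain that guides class II molecules to the endosome, had 1659, 983 and 1412 CPM in the double mutant and 279, 283 and 308 CPM in WT (2.19, limma adjusted p = 0.092). In bulk RNA, fewer cells of a type and less RNA per cell cannot be told apart, and this holds for every rise and fall given here. The calls of H2-Aa and Ciita held only in the fit without double mutant library 1 among the 6 that left out 1 library.

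The promoters of H2-Aa and H2-Eb1 are shown for the CCAAT box, the element bound by NF-Y in class II promoters. Its core was searched as the letters ATTGG on either strand (CCAAT on the other), together with the CRE core as above. The 250 bases before the start, 5′ to 3′ on the gene's strand, from RefSeq (GRCm38.p6), lie at chr17:34287824-34288073 (minus strand) for H2-Aa and at chr17:34305617-34305866 (plus strand) for H2-Eb1, with matches in capitals.
H2-Aa: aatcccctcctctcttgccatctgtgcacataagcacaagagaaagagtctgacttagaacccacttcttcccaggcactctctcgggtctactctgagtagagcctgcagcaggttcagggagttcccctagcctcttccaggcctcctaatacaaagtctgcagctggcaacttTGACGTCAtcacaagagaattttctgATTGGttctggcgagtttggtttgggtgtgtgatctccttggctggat
H2-Eb1: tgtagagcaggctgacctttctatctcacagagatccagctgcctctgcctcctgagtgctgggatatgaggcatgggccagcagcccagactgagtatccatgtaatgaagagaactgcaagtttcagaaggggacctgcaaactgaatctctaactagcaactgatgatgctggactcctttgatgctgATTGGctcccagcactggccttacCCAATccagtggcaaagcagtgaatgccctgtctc
The CCAAT core lies at -48 to -44 in H2-Aa, downstream of a CRE palindrome at -74 to -67, and at -59 to -55 and -35 to -31 in H2-Eb1. It was present in 7 of the 8 class II promoters in the table (87.5%), which belong to 7 genes. The share was 35.4% of the promoters of tested genes and 33.8% of all promoters.

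Of the 18 dendritic cell genes, all measured, 4 rose (against 0.491% of all genes), none fell, and the median log2 change was 1.80. Among the 4, Batf3 and Cd209a reached the minimum in the double mutant only, so they had to differ in order to be counted. An unadjusted p below 0.05 was found for 12 higher and 1 lower (against 15.2% of all genes in either direction), and voom weights called as many. Id2, a helix-loop-helix inhibitor needed for conventional dendritic cells, had 199, 118 and 142 CPM in the double mutant and 19.7, 26.1 and 24.2 CPM in WT (2.69 ± 0.53, limma adjusted p = 0.033). Batf3, a transcription factor of the cross-presenting subset, had 8.16, 5.61 and 10.2 CPM in the double mutant and 0.152, 0.626 and 0.805 CPM in WT (4.11 ± 0.87, limma adjusted p = 0.0447). In both genes the lowest double mutant library stood far above the highest WT one. Itgax, which encodes CD11c, had 35.8, 22.5 and 19.3 CPM in the double mutant and 5.68, 4.03 and 5.34 CPM in WT (2.33 ± 0.48, limma adjusted p = 0.0415). The lectin Cd209a had 5.98, 3.23 and 4.46 CPM in the double mutant and 0.229, 0.626 and 0.256 CPM in WT (3.65 ± 0.74, limma adjusted p = 0.0404). Library 1 was the highest double mutant in both. Other markers of the cross-presenting subset were separate between the groups without passing. Xcr1, a chemokine receptor of these cells, had 37.9, 23.7 and 47.2 CPM in the double mutant and 3.16, 3.87 and 7.69 CPM in WT (2.93, limma adjusted p = 0.0935). Clec9a, a receptor for dead cells, had 21.6, 14.4 and 30.2 CPM in the double mutant and 2.55, 3.44 and 3.95 CPM in WT (2.69, limma adjusted p = 0.122). Summed over the 18 genes, the level was 2283, 1715 and 1826 CPM in the double mutant and 785.6, 871.9 and 830.3 CPM in WT, and no marker of the list was at 0 in all 6 libraries. How far the share of such cells in the sorted fraction entered the result was not tested. The 4 calls held only without double mutant library 1, and those of Id2, Batf3 and Itgax were lost with scaling by total counts.

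Of 13 measured monocyte and macrophage genes (15 listed), Lgals3 and Ccr2 rose (against 0.491% of all genes) and none fell. An unadjusted p below 0.05 was found for 5, all higher (against 15.2% of all genes in either direction). The list's median log2 change was 0.56, and its summed level was 1439 and 1288 CPM in double mutant libraries 1 and 3, with library 2 somewhat lower, and 813.8, 861.6 and 847.4 CPM in WT. Lgals3, which encodes galectin-3 (chromosome 14, 47367751 to 47386160, plus strand), had 56.2, 39.0 and 41.3 CPM in the double mutant and 5.30, 8.14 and 7.47 CPM in WT, a log2 change of 2.71 ± 0.40 (limma adjusted p = 0.00877). Its call was kept in 5 of the 6 fits that left out 1 library and lost without WT library 1. Ccr2, the receptor that brings monocytes out of the marrow, had 191, 150 and 133 CPM in the double mutant and 40.5, 37.7 and 42.2 CPM in WT (1.96 ± 0.37, limma adjusted p = 0.025). In both genes the groups were far apart. The call of Ccr2 held only without double mutant library 1.

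The single mutants are set beside the double mutant next, first in the antigen presentation and myeloid genes. H2-Aa had 254, 567 and 952 CPM in Tet2-/- and 540, 101 and 240 CPM in Nras(G12D), and the double mutant differed from Tet2-/- by a log2 of 0.01 (limma adjusted p = 0.995). Lgals3 had 16.9, 41.0 and 67.1 CPM in Tet2-/- and 36.2, 36.4 and 24.5 CPM in Nras(G12D), with a log2 difference of double mutant over Tet2-/- of 0.32 (limma adjusted p = 0.549). H2-Ab1, the beta chain of I-A, had 1150, 701 and 1150 CPM in the double mutant, 90.4, 774 and 281 CPM in Tet2-/- and 91.5, 184 and 208 CPM in WT, and was higher in the double mutant than in Tet2-/- (1.85, limma adjusted p = 0.0489). Tet2-/- library 1 was below all WT libraries in it, while the 3 Tet2-/- values of H2-Aa were above WT. Zbtb46, a factor of conventional dendritic cells, had 9.55, 20.1 and 19.7 CPM in the double mutant, 1.95, 4.44 and 5.81 CPM in Tet2-/- and 2.59, 2.70 and 2.42 CPM in WT, and was also higher in the double mutant than in Tet2-/- (2.07, limma adjusted p = 0.0374). The median log2 change of the MHC class II list was 1.71 in the double mutant, 1.42 in Tet2-/- and 0.98 in Nras(G12D), each against WT, and that of the dendritic cell list was 1.80, 0.68 and 0.81.

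Among the immediate early genes, Jun had 12, 39.9 and 9.44 CPM in Tet2-/- and 47.1, 53.7 and 38.4 CPM in Nras(G12D), within or near the range of WT. It was higher in the double mutant than in Tet2-/- by a log2 of 5.78 (limma adjusted p = 0.00451), and its difference from Nras(G12D) of 4.31 did not pass (limma adjusted p = 0.0531). Egr1 had 18.8, 13.4 and 4.18 CPM in Tet2-/- and 6.42, 5.94 and 7.56 CPM in Nras(G12D), and was higher in the double mutant than in either, by a log2 of 4.12 (limma adjusted p = 0.00451) and of 4.74 (limma adjusted p = 0.0047). Fos had 109, 108 and 88.9 CPM in Tet2-/- and 47.7, 16.3 and 155 CPM in Nras(G12D). All 3 Tet2-/- libraries were above WT in Fos, by a log2 of 1.62 that did not pass (limma adjusted p = 0.259), and below the double mutant, which was higher by 2.77 (limma adjusted p = 0.0298). In the leukemic double mutant the libraries differed among themselves. Library 3 had 375 CPM of Jun, 399 of Fos, 150 of Egr1 and 152 of Dusp1, and the summed level of the list was 1405, 1613 and 3192 CPM in leukemic libraries 1 to 3.

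Over the whole list, 18 of the 24 immediate early genes were higher in the double mutant than in Tet2-/-, where 20.7% of all genes were called higher, and Egr1 alone was higher than in Nras(G12D), where 0.0605% of all genes were. The list's median log2 change was -0.16 in Tet2-/- against WT and 0.50 in Nras(G12D) against WT, against 2.47 in the double mutant. Of all 13231 genes, 3939 (29.8%) were called in the double mutant against Tet2-/-, 2738 (20.7%) higher and 1201 (9.08%) lower, and 5821 (44.0%) had an unadjusted p below 0.05. Against Nras(G12D) 12 were called (0.0907%), 8 (0.0605%) higher and 4 (0.0302%) lower, and 969 (7.32%) had an unadjusted p below 0.05. Tet2-/- against WT gave 38 calls (0.287%), 18 (0.136%) higher and 20 (0.151%) lower, and Nras(G12D) against WT gave 0 in limma with 533 genes (4.03%) at an unadjusted p below 0.05. The median SD of log2 values was 0.228 in the double mutant, 0.339 in Tet2-/-, 0.480 in Nras(G12D) and 0.192 in WT. These comparisons share the double mutant or the WT libraries, so their values are set side by side and are not independent.

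Tjp1, which encodes the tight junction protein ZO-1 (chromosome 7, 65296165 to 65527781, minus strand), rose whichever library was left out. It had 25.9, 66.1 and 36.0 CPM in the double mutant and 4.95, 5.44 and 2.75 CPM in WT, a log2 change of 3.23 ± 0.40 (limma adjusted p = 0.00292). The call was kept in all 6 fits that left out 1 library, with log2 changes of 2.86 to 3.53. Tjp1 had 16.2, 8.85 and 15.6 CPM in Tet2-/- and 11.1, 14.1 and 8.42 CPM in Nras(G12D), between the double mutant and WT. It was higher in the double mutant than in Tet2-/- by a log2 of 1.59 (limma adjusted p = 0.0112), and by 1.85 over Nras(G12D), which did not pass (limma adjusted p = 0.17).

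Several rises concerned signaling receptors and surface molecules. Fzd1, a Frizzled receptor for WNT proteins, had 3.04, 5.70 and 5.93 CPM in the double mutant and 0.152, 0.274 and 0.33 CPM in WT (4.18 ± 0.61, limma adjusted p = 0.00877). Acvrl1, a receptor of the BMP family, had 11.6, 7.39 and 9.65 CPM in the double mutant and 1.26, 1.25 and 1.87 CPM in WT (2.69 ± 0.46, limma adjusted p = 0.0169). Both were separate from WT by a wide margin. Klrk1, which encodes the activating receptor NKG2D, had 25, 17.3 and 20.5 CPM in the double mutant and 2.06, 2.07 and 3.22 CPM in WT (3.10 ± 0.55, limma adjusted p = 0.019). March1, a ubiquitin ligase that removes class II molecules from the surface, had 19, 12.3 and 15.9 CPM in the double mutant and 1.33, 2.23 and 2.16 CPM in WT (3.05 ± 0.54, limma adjusted p = 0.019). Library 1 was the highest double mutant in Klrk1 and March1 and the lowest in Fzd1. Il6, a cytokine of inflammation, had 2.63, 2.62 and 3.44 CPM in the double mutant and 0.305, 0.469 and 0.146 CPM in WT (3.28 ± 0.49, limma adjusted p = 0.0088). As with Fzd1, it reached the minimum in the double mutant only. Il6 was the only call among 19 measured NF-kB and inflammatory genes, whose median log2 change was 0.90. Of the 19, 9 had an unadjusted p below 0.05, all higher (against 15.2% of all genes in either direction). Mycl, a MYC family factor used by dendritic cells, had 24.7, 36.3 and 35.7 CPM in the double mutant and 1.30, 2.90 and 2.56 CPM in WT (3.89 ± 0.81, limma adjusted p = 0.0415). Gnas, the imprinted gene of the stimulatory G protein alpha subunit, had 1.90, 7 and 7.41 CPM in the double mutant and 0.419, 1.33 and 0.696 CPM in WT (2.63 ± 0.56, limma adjusted p = 0.0452). Among these genes the call of Fzd1 was lost only without double mutant library 2 or WT library 1, that of Il6 held without double mutant library 1 or WT library 2, and the others held only without double mutant library 1. The call of Gnas was lost with only the 6 compared libraries, and that of Mycl with scaling by total counts.

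Genes that slow the cell cycle rose in part. Of 12 measured cell cycle inhibitors (15 listed), 3 rose (against 0.491% of all genes) and none fell, and the median log2 change was 0.61. An unadjusted p below 0.05 was found for 4 higher and 1 lower (against 15.2% of all genes). Btg1, an antiproliferative gene (chromosome 10, 96617006 to 96622809, plus strand), had 31.9, 82.4 and 90.5 CPM in the double mutant and 9.87, 15.6 and 9.01 CPM in WT (2.47 ± 0.40, limma adjusted p = 0.0126). Its relative Btg2 had 355, 204 and 211 CPM in the double mutant and 78.3, 65.4 and 73.0 CPM in WT (1.79 ± 0.31, limma adjusted p = 0.019). Cdkn2c, the CDK4 and CDK6 inhibitor p18, had 26.4, 82.9 and 75.6 CPM in the double mutant and 11.3, 19.3 and 13.9 CPM in WT (1.92 ± 0.41, limma adjusted p = 0.0465). Library 1 was lowest among the double mutants in Btg1 and Cdkn2c and highest in Btg2. Cdkn1a, which encodes p21, had 17.6, 10.5 and 9.65 CPM in the double mutant and 31.4, 23.4 and 14.3 CPM in WT, with overlapping groups (-0.85, limma adjusted p = 0.322). The calls of Btg2 and Cdkn2c held only without double mutant library 1 and that of Btg1 without it or WT library 2, and Cdkn2c lost its call with only the 6 compared libraries.

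The machinery of division showed no such calls. None of 23 DNA replication genes was called by limma or had an unadjusted p below 0.05. Voom weights called 1 higher and 7 lower (against 27.5% of all genes in either direction). The 23 had a median log2 change of -0.33. Of 20 mitosis genes none was called by limma, 1 had an unadjusted p below 0.05 and voom weights called 1, and the median was -0.17. All 29 measured replication-dependent histone genes (70 listed) had a log2 change above 0, with a median of 0.95, and 20 of them lay above WT without overlap, against 16.6% of all genes. None passed in limma, 13 had an unadjusted p below 0.05, all higher (against 15.2% of all genes), and voom weights called 18 higher (against 27.5% of all genes in either direction). Hist1h1c, a linker histone, had 81.5, 66.7 and 84.9 CPM in the double mutant and 14.4, 34.7 and 23.5 CPM in WT (1.76, limma adjusted p = 0.101). Most histone transcripts of this kind carry no poly(A) tail, and the libraries were made from mRNA, so these values cover the part that was captured.

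**Figure D3:**
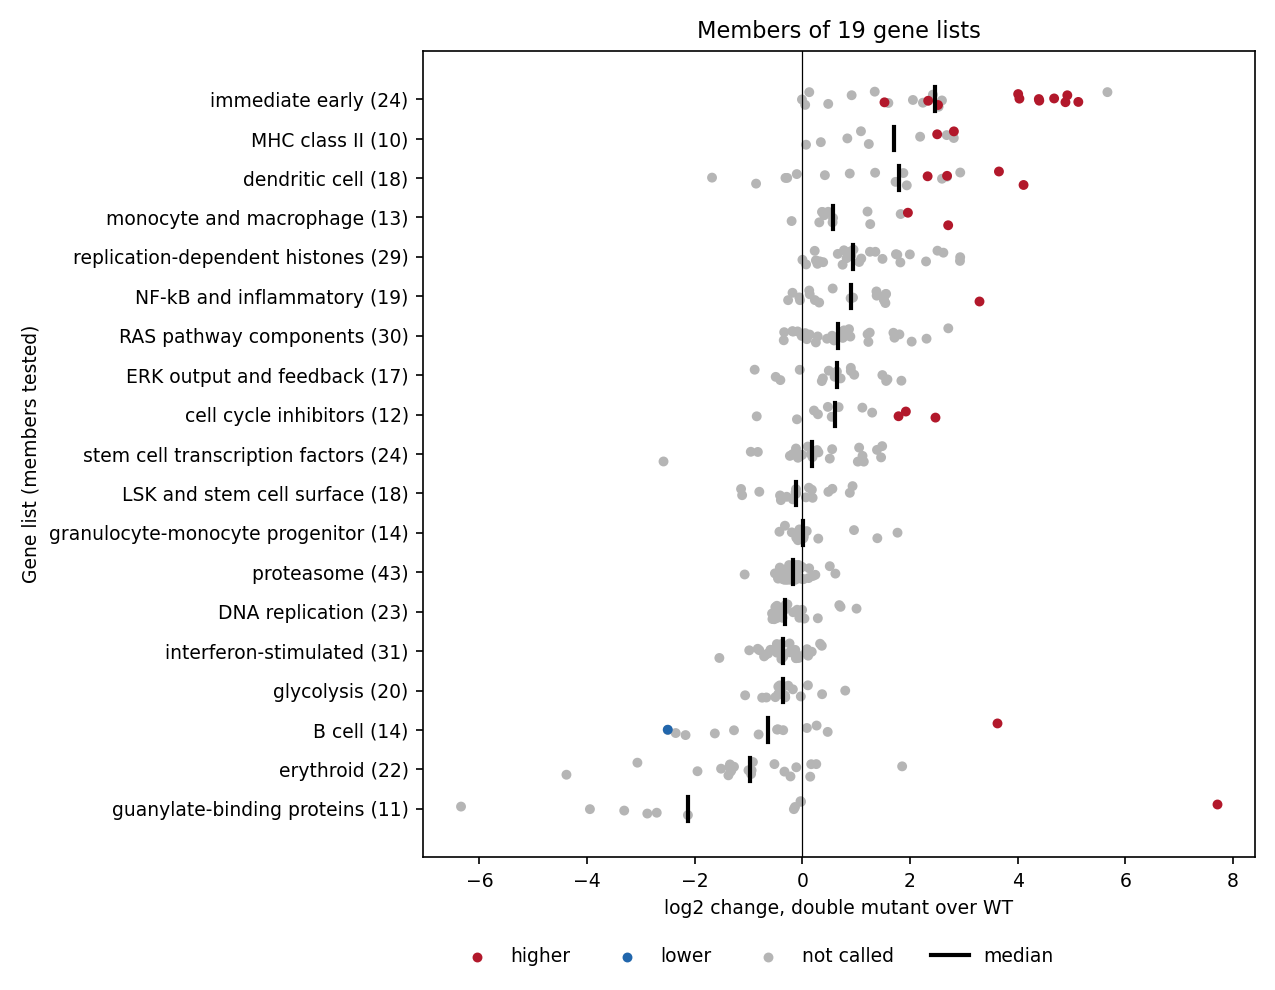
Log2 change, double mutant over WT, of each measured member of 19 gene lists (points; red rose, blue fell, grey not called) with the list medians as bars. The immediate early median lies at 2.47 and the LSK and stem cell surface median at -0.12.

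The markers by which the cells were sorted did not pass the test. For the counts that follow, 15.2% of all genes had an unadjusted p below 0.05 and voom weights called 27.5%. Among 18 LSK and stem cell surface genes limma called none, 1 had an unadjusted p below 0.05, and voom weights called 2 higher and 2 lower. Their median log2 change was -0.12. Kit had 1164, 989 and 688 CPM in the double mutant and 1170, 1130 and 1421 CPM in WT. Ly6a, which encodes Sca1, had 94.3, 76.4 and 72.4 CPM in the double mutant and 103, 87.5 and 73.6 CPM in WT, and Cd34 had 1296, 1194 and 1169 CPM in the double mutant and 1399, 1307 and 1428 CPM in WT. All 3 were well detected in each library. Of 9 measured lineage markers that the sort removes, none was called by limma, 4 had an unadjusted p below 0.05 (1 higher, 3 lower) and voom weights called 1 higher and 3 lower, with a median of -1.02. Of 24 stem cell transcription factors none was called by limma, 6 had an unadjusted p below 0.05 (4 higher, 2 lower) and voom weights called 7 higher and 3 lower. Their median of 0.17 fell below 0 when libraries were centred on their median (-0.05) or corrected for GC content and length (-0.07). Gata2, a factor of stem and early myeloid cells, had 244, 291 and 294 CPM in the double mutant and 92.4, 154 and 143 CPM in WT (1.12, limma adjusted p = 0.167). Prdm16, a factor needed to maintain stem cells, had 18.7, 15.2 and 18.0 CPM in the double mutant and 30.0, 30.9 and 30.9 CPM in WT (-0.83, limma adjusted p = 0.25). Both were separate between the groups.

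Genes of the other progenitor fates gave few calls. Over all genes, 15.2% had an unadjusted p below 0.05 and voom weights called 27.5%. None of 14 granulocyte-monocyte progenitor genes was called by limma, 2 had an unadjusted p below 0.05 and voom weights called 3 higher. Mpo, the enzyme of primary granules, had 2183, 2238 and 1818 CPM in the double mutant and 1935, 2596 and 2657 CPM in WT. None of 22 erythroid genes was called by limma, 3 had an unadjusted p below 0.05 (1 higher, 2 lower), voom weights called 1 higher and 2 lower, and the median log2 change was -0.98. None of 16 lymphoid priming genes was called by limma, 5 had an unadjusted p below 0.05 (3 higher, 2 lower) and voom weights called 4 higher and 3 lower. Dntt, the polymerase that adds bases at antigen receptor joints, had 419, 324 and 98.4 CPM in the double mutant and 1022, 780 and 879 CPM in WT (-1.90 ± 0.56, limma adjusted p = 0.111). Double mutant library 3 was the lowest in it. Among 14 measured B cell genes (17 listed) 1 rose and 1 fell. Of the 14, 10 were below 0, 6 lay below WT without overlap, 1 was higher and 6 lower at an unadjusted p below 0.05, voom weights called 2 higher and 6 lower, and the median was -0.64. Cd22, the gene that rose, an inhibitory receptor of B cells, had 9.65, 8.80 and 3.79 CPM in the double mutant and 0.457, 0.665 and 0.512 CPM in WT (3.62 ± 0.60, limma adjusted p = 0.0129). It reached the minimum in the double mutant only.

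The genes that fell included matrix and adhesion molecules. Thbs1, which encodes the matrix protein thrombospondin-1 (chromosome 2, 118111876 to 118127133, plus strand), had 0.899, 2.02 and 1.26 CPM in the double mutant and 304, 77.2 and 302 CPM in WT, a log2 change of -7.17 ± 0.76 (limma adjusted p = 0.000724). The call was kept in all 6 fits that left out 1 library, with log2 changes of -7.82 to -6.84. Thbs1 had 2.08, 0.966 and 2.84 CPM in Tet2-/- and 2.69, 7.05 and 29.9 CPM in Nras(G12D), so all 9 libraries of these 3 groups lay below the lowest WT library. The double mutant did not differ from Tet2-/- by the test (-0.43, limma adjusted p = 0.682).

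Mrc2, an endocytic collagen receptor (chromosome 11, 105292643 to 105351139, plus strand), had 0.0346, 0 and 0.0702 CPM in the double mutant and 6.36, 4.38 and 9.12 CPM in WT (limma adjusted p = 0.0115). The double mutant libraries were at or under 3 counts, that is 0.104, 0.0905 and 0.105 CPM, so no fold is given. Mrc2 had 0.0425, 0.121 and 0 CPM in Tet2-/- and 0.148, 0.0258 and 0.991 CPM in Nras(G12D). Lmo7, a LIM domain protein of cell junctions and the nucleus (chromosome 14, 101729957 to 101934710, plus strand), had 0.865, 1.48 and 0.386 CPM in the double mutant and 14.7, 6.57 and 18.2 CPM in WT (-3.90 ± 0.64, limma adjusted p = 0.0126). Col1a2, a chain of type I collagen (chromosome 6, 4504814 to 4541544, plus strand), had 2.32, 3.53 and 2.32 CPM in the double mutant and 18.7, 11.7 and 21.5 CPM in WT (-2.65 ± 0.43, limma adjusted p = 0.0126). In both, WT library 2 was the lowest of WT, as it was in Thbs1 and Mrc2. Lmo7 had 0.552, 1.06 and 1.15 CPM in Tet2-/- and 1.48, 1.29 and 4.55 CPM in Nras(G12D), and Col1a2 had 3.57, 1.45 and 1.40 CPM in Tet2-/- and 2.29, 1.58 and 3.25 CPM in Nras(G12D). In both genes all 9 libraries of the double mutant, Tet2-/- and Nras(G12D) lay below the lowest WT library. The calls of Mrc2, Lmo7 and Col1a2 held in 3, 3 and 2 of the 6 fits that left out 1 library, among them those without double mutant library 1 and without WT library 2. Col1a2 is a stromal gene, and it was the only call among 5 measured of 14 stromal and endothelial genes, whose median log2 change was -0.22.

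**Figure D4:**
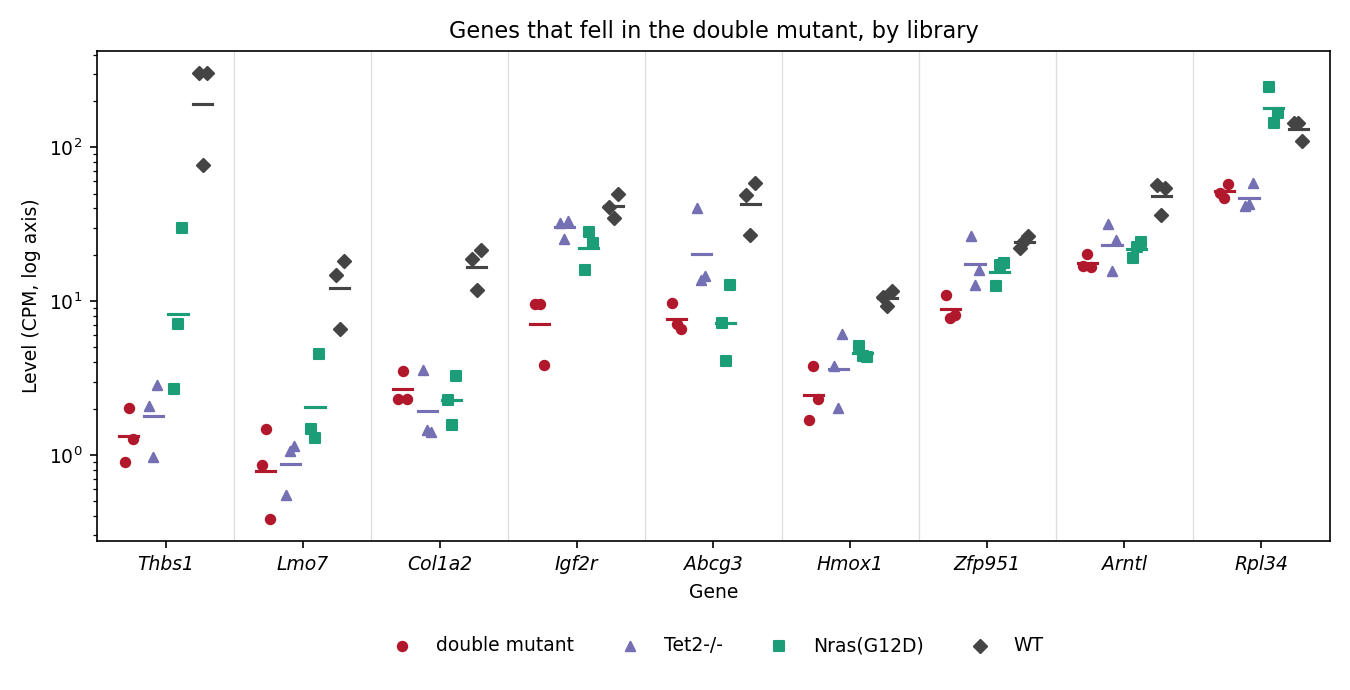
Level in CPM (y axis, log scale) of 9 genes that fell, in each library of the double mutant, Tet2-/-, Nras(G12D) and WT groups from left to right; points are libraries and bars geometric means of 3. Thbs1 lies between 0.899 and 2.02 CPM in the double mutant and between 77.2 and 304 CPM in WT.

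In another set of falls the Tet2-/- libraries stayed above the double mutant. Igf2r, the imprinted receptor that clears IGF2 and sorts lysosomal enzymes (chromosome 17, 12682406 to 12769664, minus strand), had 9.65, 9.62 and 3.86 CPM in the double mutant, 32.3, 25.5 and 33.3 CPM in Tet2-/-, 16, 28.3 and 23.8 CPM in Nras(G12D) and 40.7, 34.9 and 49.6 CPM in WT. Its log2 change was -2.54 ± 0.45 against WT (limma adjusted p = 0.019) and -2.08 against Tet2-/- (limma adjusted p = 0.00632). All 3 double mutant values lay below those of Tet2-/-, Nras(G12D) and WT. The call of Igf2r held only without double mutant library 1. Abcg3, an ABC transporter of the G family, had 9.75, 7.06 and 6.6 CPM in the double mutant, 40.6, 13.7 and 14.6 CPM in Tet2-/-, 7.23, 4.08 and 12.6 CPM in Nras(G12D) and 48.8, 26.8 and 58.6 CPM in WT. It fell by 2.46 on the log2 scale against WT (limma adjusted p = 0.0304). It overlapped with Nras(G12D), and its call held only without double mutant library 1 or WT library 2.

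Among metabolic and clock genes, Hmox1, the heme-degrading enzyme, had 1.70, 3.80 and 2.32 CPM in the double mutant and 10.6, 9.31 and 11.6 CPM in WT (-2.08 ± 0.42, limma adjusted p = 0.0407). Arntl, which encodes the clock factor BMAL1, had 16.8, 20.2 and 16.6 CPM in the double mutant and 57.0, 36.5 and 54.1 CPM in WT (-1.44 ± 0.28, limma adjusted p = 0.0304). The groups were separate in both genes. The call of Hmox1 held only without double mutant library 1, and that of Arntl without that library or WT library 2. Of the 17 measured circadian clock genes Arntl was the only call, 11 were above 0, 5 were higher and 3 lower at an unadjusted p below 0.05, and the median was 0.26. Bcat1, the cytosolic enzyme of branched-chain amino acid breakdown, had 0.588, 0.422 and 0.281 CPM in the double mutant and 3.54, 4.03 and 3.40 CPM in WT (-3.10, limma adjusted p = 0.025). The 20 glycolysis genes had a median log2 change of -0.37, and in 15 the double mutant lay below WT without overlap, against 21.1% of all genes. None was called by limma, 6 had an unadjusted p below 0.05 (1 higher, 5 lower), and voom weights called 1 higher and 10 lower. Gapdh had 529, 506 and 420 CPM in the double mutant and 618, 670 and 650 CPM in WT (-0.42, limma adjusted p = 0.265).

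The interferon-stimulated list did not rise as a group. None of 31 interferon-stimulated genes was called by limma, and their median log2 change was -0.36. An unadjusted p below 0.05 was found for 2, both lower (against 15.2% of all genes in either direction). Voom weights called 6 lower (against 27.5% of all genes in either direction). Rsad2, which encodes viperin, had 21.9, 15.8 and 7.37 CPM in the double mutant and 44.7, 36.1 and 39.2 CPM in WT (-1.54, limma adjusted p = 0.0872). The Ifi200 family of interferon-inducible DNA sensors had a median log2 change of 0.26 over 9 measured members (10 listed). Of these, 8 were above 0, 5 lay above WT without overlap (against 16.6% of all genes), and Ifi205 alone rose (against 0.491%). Ifi205 had 50.3, 36.4 and 38.6 CPM in the double mutant and 2.63, 3.36 and 5.64 CPM in WT (3.48 ± 0.71, limma adjusted p = 0.0415). Its call held only without double mutant library 1. The guanylate-binding proteins are interferon-induced GTPases that attack intracellular pathogens. Of 11 measured members, 10 had a log2 change below 0, without a call, and Gbp2b was the exception. The change was small in the chromosome 3 members Gbp2 (-0.02), Gbp3 (-0.04), Gbp5 (-0.16) and Gbp7 (-0.14). The family had a median log2 change of -2.13, 6 lay below WT without overlap (against 21.1% of all genes), and 6 were lower at an unadjusted p below 0.05 and by voom weights. Gbp2b on chromosome 3 (142594847 to 142619179, plus strand) rose, by 7.70 ± 1.04 on the log2 scale (limma adjusted p = 0.00593), with 28.1, 18.4 and 35.1 CPM in the double mutant and 0.0381, 0.157 and 0.183 CPM in WT. Its call was kept in all 6 fits that left out 1 library. Its chromosome 3 neighbours Gbp2 and Gbp7 overlapped between the groups, with 85.2, 54.7 and 48.7 CPM in the double mutant and 59.4, 60.5 and 66.5 CPM in WT for Gbp2 (-0.02, limma adjusted p = 0.987). On chromosome 5, Gbp6 had 5.36, 2.92 and 1.09 CPM in the double mutant and 35.2, 13.5 and 35.8 CPM in WT (-3.31, limma adjusted p = 0.11), and Gbp4 had 7.88, 4.76 and 2.28 CPM in the double mutant and 48.3, 14.1 and 50.6 CPM in WT (-2.88, limma adjusted p = 0.195). These were separate between the groups but did not pass. Members of the family are alike in sequence, and how reads were shared among them is not stated in the sources used here.

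Gbp2b lies 9.103 Mb from Tet2, which led to a look at that region, chosen after the values were seen. Of 655 measured genes of chromosome 3, 5 were called (0.763%, against 0.695% of all genes), and all 5 lay within 10 Mb of Tet2, where 70 genes were measured. Within 20 Mb of Nras limma called none of 340 genes, 41 had an unadjusted p below 0.05 (12.1%, against 15.2% of all genes) and voom weights called 84 (24.7%, against 27.5% of all genes). Within 20 Mb of Tet2 limma called 5 of 149 genes (3.36%), and the other numbers were 29 (19.5%) and 48 (32.2%). Within 10 Mb they were 20 (28.6%) and 28 (40%) of 70 for Tet2, and 25 (13%) and 48 (25%) of 192 for Nras. Within 5 Mb they were 15 (33.3%) and 20 (44.4%) of 45 for Tet2, and 14 (17.7%) and 25 (31.6%) of 79 for Nras. Beside Gbp2b the genes that limma called were Bank1, Gm19708, Gstcd and Rpl34. Bank1, a scaffold protein of B cell signaling (136053363 to 136326066, minus strand), had 0.934, 0.965 and 0.983 CPM in the double mutant, 2.04, 3.65 and 3.06 CPM in Tet2-/-, 2.44, 8.47 and 9.07 CPM in Nras(G12D) and 5.11, 6.77 and 4.83 CPM in WT. It fell by 2.50 on the log2 scale against WT (limma adjusted p = 0.031). Gstcd, a glutathione S-transferase domain gene (132981752 to 133092033, minus strand), had 44.3, 63.6 and 55.0 CPM in the double mutant, 11.3, 26.2 and 13.5 CPM in Tet2-/-, 15.1, 19.4 and 6.19 CPM in Nras(G12D) and 6.17, 13.1 and 9.48 CPM in WT. Its log2 change was 2.55 ± 0.44 (limma adjusted p = 0.019). In both genes the double mutant was outside the range of Tet2-/-, Nras(G12D) and WT. The calls of Bank1 and Rpl34 held only without double mutant library 1, and that of Gstcd without that library or WT library 2.

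**Figure D5:**
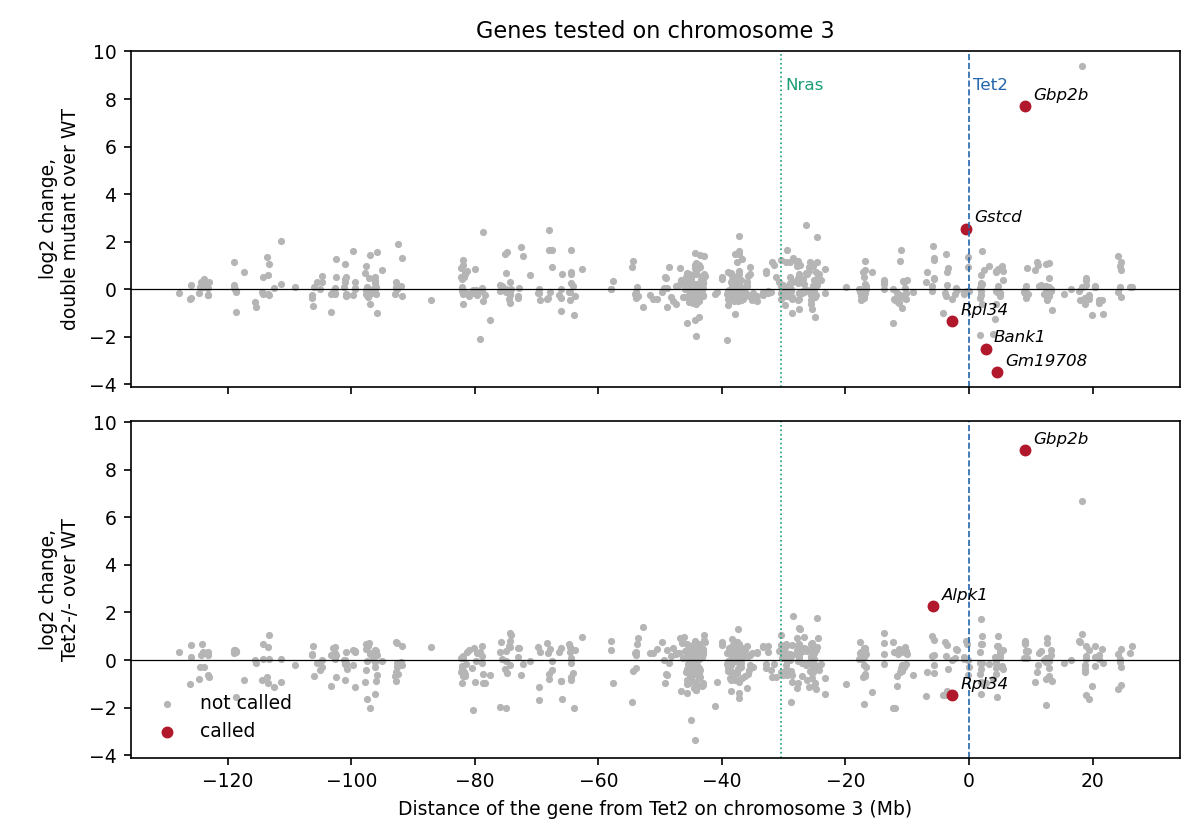
Log2 change over WT of each measured gene of chromosome 3 (y axis) against its distance from Tet2 in Mb (x axis), for the double mutant (upper panel) and Tet2-/- (lower panel); the dashed line marks Tet2 and the dotted line Nras. The called genes of the upper panel lie from -2.776 to 9.103 Mb.

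Levels of Gbp2b, Ifi44l and Alpk1 in other groups are given next. In Gbp2b and Ifi44l they did not follow genotype alone, since leukemic and non-leukemic double mutant libraries differed. Gbp2b had 88.0, 28.6 and 76.4 CPM in Tet2-/- and 0.0369, 0 and 0.0929 CPM in Nras(G12D), so that it was high in the 6 double mutant and Tet2-/- libraries and near 0 in WT and Nras(G12D). In the leukemic libraries, which lack Tet2 too, it had 0.240, 5.80 and 0.312 CPM. Ifi44l, an interferon-induced gene 18.256 Mb from Tet2 that was picked after its values were seen, had 22.3, 21.6 and 38.2 CPM in the double mutant and 0.0381, 0 and 0.0366 CPM in WT, without passing (limma adjusted p = 0.0719). It had 73.6, 0 and 62.6 CPM in Tet2-/-, where library 2 stood apart, 0, 0.0517 and 0 CPM in Nras(G12D) and 0.0343, 0.0659 and 0 CPM in the leukemic libraries. WT was at or under 3 counts, so no fold is given. Alpk1, a kinase that senses bacterial sugars, had 55.5, 46.1 and 61.6 CPM in the double mutant, 88.3, 44.5 and 104 CPM in Tet2-/- and 16.8, 12.8 and 17.2 CPM in WT, without passing in the double mutant (1.80 ± 0.42, limma adjusted p = 0.0678). Sequence that differs between mouse strains and lies near an engineered allele cannot be told apart here from an effect of the allele.

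Rpl34, a protein of the large ribosomal subunit (chromosome 3, 130726831 to 130730398, minus strand), was the only call among 80 measured ribosomal protein genes. It had 50.4, 47.1 and 57.8 CPM in the double mutant, 41.8, 42.5 and 58.7 CPM in Tet2-/-, 245, 143 and 168 CPM in Nras(G12D) and 145, 144 and 109 CPM in WT. Its log2 change was -1.35 ± 0.24 against WT (limma adjusted p = 0.019) and -1.81 against Nras(G12D) (limma adjusted p = 0.00443). The pseudogene Rpl34-ps1 on chromosome 6 moved the other way, with 21.3, 19 and 24.9 CPM in the double mutant, 22, 20.4 and 28.6 CPM in Tet2-/-, 3.17, 1.11 and 1.18 CPM in Nras(G12D) and 1.52, 1.25 and 0.805 CPM in WT (4.20 ± 0.39, limma adjusted p = 0.000192). Reads of such near-identical copies can be assigned to either, so both values are uncertain. In the leukemic libraries Rpl34 had 142, 192 and 196 CPM and Rpl34-ps1 had 1.41, 1.61 and 1.68 CPM, near the WT values of each.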

How the data were processed

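The authors' deposited table gives 1 log2 value per gene symbol and library. These are log2 CPM with 0.5 added to each count and 1 to the library size, a formula read from the values: under it 100% of them are whole counts within 1e-06. CPM values printed here are those counts over the authors' scaled library sizes. The tools named per the submitters' processing notes are STAR 2.4.0f1, bcl2fastq, limma 3.28.21 and edgeR 3.14.0. The builds NCBIM37 and mm10 appear there with no stated role. How counting was done, with which annotation and strand setting, is not given in the sources used here. Overlapping and antisense genes may share reads.

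Libraries were mapped to groups by their description labels. Column N2-3 was taken as Nras(G12D) library 2 and columns named BMT as leukemic libraries. The model on the deposited log2 values used limma 3.58.1 (R 4.3.3, intensity trend in eBayes), with 5 group means and 10 residual degrees of freedom. Log2 changes understate the change of low genes because of the added count. Errors on log2 changes are standard errors, with 3 libraries a group. The model was tested on simulated data with 200 changed genes. The simulation gave all libraries the same spread and let none stand apart. It therefore does not bear on how the calls depend on the library left out. Positions come from GENCODE vM21 (GRCm38) and were found for 12898 genes (97.5%). Promoters are RefSeq's. Up to 25 rises and 15 falls of largest size were named among called genes with separate groups and a mean log2 of at least 3 in the higher group (leaving out unnamed models, pseudogenes and receptor segments), plus up to 5 members per gene list of smallest adjusted p. Another 30 genes were chosen after their values were seen, Atf3, Zfp36, Klf6, Fzd1 and Ifi44l among them. The members and all 44 lists were chosen with earlier results of these data known. In all, 21 alternatives were run, 20 planned and 1 chosen after seeing the data. Some genes that the rule names are summarised only by their list's counts.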

Additional observations from a re-analysis of the deposited data

How the results depend on the processing

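No call changed direction under any of the 21 alternatives. Against 92 genes called (65 higher, 27 lower), the count was 22 (19 and 3) with a minimum in all 6 libraries, 325 (211 and 114) with quantile normalization, 587 (318 and 269) with only the 6 compared libraries, 3633 (2508 and 1125) with voom and sample quality weights, 518 (458 and 60) with sex as a covariate, and 2842 (2155 and 687) with the 6 libraries less double mutant library 1, an alternative chosen after seeing the data. The lower calls numbered 47 without a filter, 41 with median centring and 43 without the leukemic group. Leaving out 1 library gave 7 to 961 calls, 4 to 896 higher and 3 to 65 lower. The cause was not tested. Rises made up 70.7% of the calls, 56.1% without a filter, 86.4% with the minimum in all 6 libraries, 54.2% with the 6 libraries and 88.4% with sex as a covariate. Median centring, quantile normalization and the correction for GC content and length put the median of all genes at -0.221, -0.134 and -0.115. Median centring then gave medians below 0 for the megakaryocyte (-0.04), p53 (-0.13), splicing (-0.09) and ribosomal protein (-0.15) lists. Same-numbered libraries did not pair, with correlations of their deviations of 0.142, 0.278 and -0.135. With a replicate block the count was 113 (83 higher, 30 lower), and 82 of the 92 calls were kept. At 3 counts per library, or 0.0905 to 0.117 CPM, falls to near 0 have no measurable lower end.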

Other observations

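Of the 92 called genes, 8 rises and 11 falls were unnamed gene models, pseudogenes or antigen receptor segments. The pseudogene Gm5900 on chromosome 7 had 15.5, 15.6 and 16 CPM in the double mutant, 25, 17.7 and 26.5 CPM in Tet2-/-, 1.22, 1.16 and 1.49 CPM in Nras(G12D) and 1.37, 1.17 and 1.43 CPM in WT, a log2 change of 3.55 ± 0.29 against WT (limma adjusted p = 6.52e-05). Tdpx-ps1 had 12.2, 5.22 and 7.37 CPM in the double mutant, 0.637, 0.997 and 0.957 CPM in Tet2-/-, 0.701, 0.568 and 0.588 CPM in Nras(G12D) and 0.876, 0.978 and 0.915 CPM in WT (3.05 ± 0.47 against WT, limma adjusted p = 0.0101). It was higher in the double mutant by tests against Tet2-/- (limma adjusted p = 0.00451) and Nras(G12D) (limma adjusted p = 0.00418) as well. Reads of pseudogenes may come from their parent genes.

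Antigen receptor segments were among the falls. Iglv1, a lambda light chain segment, had 2.14, 2.32 and 1.23 CPM in the double mutant and 47.3, 21.6 and 39.9 CPM in WT (-4.22 ± 0.83, limma adjusted p = 0.0323). Igkv4-55, a kappa segment, had 0.0346, 0 and 0 CPM in the double mutant and 38.9, 79.4 and 3.37 CPM in WT, where library 3 was far below the other 2 (limma adjusted p = 0.0211). Tcrg-C4, a gamma chain constant gene, had 0.519, 0.211 and 0.0702 CPM in the double mutant and 1.91, 2.31 and 1.46 CPM in WT (-3.10 ± 0.64, limma adjusted p = 0.0415). The sort was for lineage-negative cells, and the source of these transcripts was not tested.

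Other genes lay apart without passing. Pou2af1, a B cell coactivator, had 4.22, 3.62 and 5.13 CPM in the double mutant and 42.2, 16.7 and 20.3 CPM in WT (-2.50, limma adjusted p = 0.0719). Socs2, a feedback inhibitor of cytokine receptors, had 0.588, 1.84 and 0.597 CPM in the double mutant and 5.53, 5.75 and 7.03 CPM in WT (-2.78, limma adjusted p = 0.0678). Bbc3, which encodes the BH3-only protein PUMA, had 8.09, 26.0 and 38.9 CPM in the double mutant and 2.52, 5.01 and 3.77 CPM in WT (2.47, limma adjusted p = 0.0678). The groups were separate in all 3.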
